A study of Mus musculus with 6 samples.

Results

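The 9 genes described here are forkhead transcription factors: the 4 FOXO genes Foxo1, Foxo3, Foxo4 and Foxo6, the 3 FOXP genes Foxp1, Foxp2 and Foxp4, and 1 gene each of the FOXK and FOXJ groups, Foxk1 and Foxj2. They were taken by symbol from a table of 39253 genes that holds 45 forkhead symbols, and the set was drawn up with their difference between cKO and WT testes already known, so that their values are a description and not a test. RNA came from whole testes of C57BL/6 mice at postnatal day 12, 1 stranded poly(A) library per mouse. The 3 Tardbp cKO mice carried a floxed and a null allele of Tardbp, the gene of the RNA-binding protein TDP-43, together with a Stra8-iCre transgene, and the 3 WT mice carried none of these. Stra8-iCre acts in male germ cells and removes exon 3, which codes for the RNA recognition motifs of TDP-43, so that the floxed allele stays intact in Sertoli cells, whereas the null allele is carried by every cell.

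Forkhead factors bind DNA through a winged-helix domain. FOXO factors are held in the cytoplasm by 14-3-3 proteins once AKT, downstream of phosphoinositide 3-kinase (PI3K), has phosphorylated them, and they return to the nucleus when that signal is low. In the mouse testis FOXO1 marks gonocytes and undifferentiated spermatogonia and is needed to maintain the stem cells and to start spermatogenesis, and FOXO3 is best known for keeping oocytes of primordial follicles dormant. FOXP factors form dimers and mostly repress transcription with CtBP and NuRD complexes, and FOXK factors act with SIN3 and BAP1 complexes.

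The libraries held 30028685 to 43371284 estimated counts. By the labels, cKO 1 was processed in batch 2 together with the 3 WT libraries, and batch 1 held only cKO 2 and cKO 3, so that for cKO 2 and cKO 3 genotype and batch cannot be told apart. Levels are given as CPM, counts divided by the library size after scaling by the trimmed mean of M values (TMM), and errors of fold changes as standard errors (SE). Tardbp itself stood at 256, 112 and 137 CPM in cKO 1, cKO 2 and cKO 3, against 319, 334 and 313 CPM in WT 1, WT 2 and WT 3, and cKO 1 was thus the least reduced. Fold changes come from a quasi-likelihood fit in edgeR over 16632 genes with batch and genotype as terms. In that fit the genotype difference rests on cKO 1 against the 3 WT libraries. A gene counts as higher or lower at a Benjamini-Hochberg adjusted p under 0.05. By this rule Tardbp itself did not pass with the batch term (log2 fold change -0.33, SE 0.125). Without that term Tardbp was called lower, at a log2 fold change of -0.94.

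The RNA of cell type markers differed between the genotypes in the same libraries. The summed level of 16 spermatocyte markers was 363, 192 and 90.1 CPM in cKO 1 to cKO 3, against 1667, 2283 and 1721 CPM in WT 1 to WT 3, and all 16 were lower. Of 16 Sertoli cell markers 10 were higher and 1 was lower, with sums of 10172, 15926 and 17129 CPM in cKO against 7599, 6748 and 7807 CPM in WT. Over all tested genes 6.91% were called higher and 9.24% lower. None of the spermatocyte and Sertoli markers was at 0 in any library. In whole-testis RNA, fewer cells of a type and less RNA per cell cannot be told apart. What part a change in tissue composition has in the values of the forkhead genes was not tested.

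TDP-43 binds RNA at runs of UG, which read as TG in the DNA of the sense strand, and most of its binding sites lie in introns. To show what such a run looks like in these genes, the longest run of TG in Foxo1 and in Foxp1 is given 5′ to 3′ on the sense strand of GRCm39 with 15 bases on either side, with the run in capitals. Both lie in introns of all annotated transcripts, at chr3:52242088-52242165 on the plus strand for Foxo1 and at chr6:99011979-99012058 on the minus strand for Foxp1.
Foxo1 intron: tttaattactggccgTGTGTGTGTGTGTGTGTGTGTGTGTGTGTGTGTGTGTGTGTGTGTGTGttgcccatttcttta
Foxp1 intron: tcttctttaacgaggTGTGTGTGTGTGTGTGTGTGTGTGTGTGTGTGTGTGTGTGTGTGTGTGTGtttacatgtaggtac

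The Foxo1 run was 48 bases long and the Foxp1 run 50 bases. Counting runs of at least 12 bases, Foxp1 held 74, Foxp2 41, Foxp4 16, Foxo3 15, Foxk1 14, Foxo1 12, Foxj2 7 and Foxo6 3, while Foxo4, the shortest of the genes at 6407 bases, held none. Of the 15572 tested genes with a match in the annotation, 71.5% held a run, and the median was 2. Per 100 kb of gene, Foxp4 with 27.8, Foxj2 with 27.5 and Foxk1 with 23.1 had the densest runs, against a median of 7.45 over those genes. These counts describe the letters of the genome and are no measure of binding.

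The genes differ widely in size and place. Foxo1 spans chr3:52175757-52260642, Foxo3 chr10:42057837-42154007, Foxo4 chrX:100298073-100304479 and Foxo6 chr4:120124276-120147792 (GRCm39, GENCODE vM39). Foxp1 lies at chr6:98902299-99499685, Foxp2 at chr6:14901287-15441976, Foxp4 at chr17:48178058-48235699, Foxk1 at chr5:142387240-142447766 and Foxj2 at chr6:122796834-122822332. The introns of the canonical transcript add up to 533869 bases in Foxp2, 96322 in Foxp1, 88064 in Foxo3 and 76221 in Foxo1, against 3184 in Foxo4 and a median of 18458.5 bases over tested genes. Foxo4 and Foxo6 overlap no other annotated gene. The other 7 overlap noncoding genes on one or both strands, Foxp4 and Foxk1 only on the opposite strand, and the libraries were stranded. Foxp1 also overlaps the protein-coding Gm20696 on its own strand. These overlaps are those of GENCODE, while reads were assigned to NCBI transcripts, and what part they have in the counts was not tested.

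Start regions are shown for Foxo3, Foxp4 and Foxj2, whose RNA moved together between the libraries, and for Foxo1, whose RNA did not move as far. Each is the 250 bases before the start, 5′ to 3′ on the strand of the gene, from RefSeq on GRCm38.p6, with TGTGTG on either strand in capitals (CACACA where it is on the other strand). The windows are chr10:42276696-42276945 (minus strand) for Foxo3, chr17:47924633-47924882 (minus) for Foxp4, chr6:122819934-122820183 (plus) for Foxj2 and chr3:52268087-52268336 (plus) for Foxo1.
Foxo3 promoter: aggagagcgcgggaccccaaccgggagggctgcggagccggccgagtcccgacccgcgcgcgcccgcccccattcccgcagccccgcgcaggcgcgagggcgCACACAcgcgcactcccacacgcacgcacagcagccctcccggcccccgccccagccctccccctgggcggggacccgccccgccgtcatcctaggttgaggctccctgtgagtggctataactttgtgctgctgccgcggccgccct
Foxp4 promoter: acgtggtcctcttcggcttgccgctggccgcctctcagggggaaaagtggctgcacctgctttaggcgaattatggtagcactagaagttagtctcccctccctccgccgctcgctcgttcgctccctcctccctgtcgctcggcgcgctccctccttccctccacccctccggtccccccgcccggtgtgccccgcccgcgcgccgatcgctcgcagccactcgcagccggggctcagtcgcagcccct
Foxj2 promoter: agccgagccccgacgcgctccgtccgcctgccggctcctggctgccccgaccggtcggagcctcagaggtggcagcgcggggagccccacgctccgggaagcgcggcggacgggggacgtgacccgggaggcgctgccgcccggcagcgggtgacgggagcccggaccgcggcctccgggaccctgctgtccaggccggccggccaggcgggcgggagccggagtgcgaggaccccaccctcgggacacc
Foxo1 promoter: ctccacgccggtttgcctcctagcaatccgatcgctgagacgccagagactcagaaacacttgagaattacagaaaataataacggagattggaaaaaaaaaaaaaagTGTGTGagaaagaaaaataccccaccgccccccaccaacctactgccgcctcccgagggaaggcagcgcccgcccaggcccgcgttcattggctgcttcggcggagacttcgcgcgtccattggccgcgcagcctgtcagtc

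TGTGTG occurred once in the Foxo3 window, 148 bases before the start, and once in the Foxo1 window, 142 bases before the start, and the Foxp4 and Foxj2 windows held none. The share of all 32851 promoter windows of this length with TGTGTG on either strand was 17.9%. The FOXO motif TGTTTAC, searched on both strands, was in none of these windows and in 3.17% of all windows.

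Foxo1 was similar to WT in cKO 1 and higher in the other cKO libraries. It had 104, 156 and 143 CPM in cKO 1, cKO 2 and cKO 3, against 107, 95.1 and 101 CPM in WT 1, WT 2 and WT 3. The cKO 1 library lay inside the WT range, so that the groups overlapped. With the batch term its log2 fold change was 0.05 (SE 0.105), without it 0.41, and Foxo1 did not pass in either fit. It passed as higher only without the batch term and with cKO 1 left out, at a log2 fold change of 0.55.

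Foxo3 had 292, 517 and 509.9 CPM in the 3 cKO libraries, against 234, 208 and 223 CPM in the WT libraries. Each cKO library lay above each WT library, by 1.32-, 2.33- and 2.30-fold over the WT mean. The fitted log2 difference was 0.40 (SE 0.0941) with the batch term and 0.99 without it, and Foxo3 was called higher in both fits.

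Foxo6, a FOXO factor known mainly from the brain, showed the largest difference of the 9 genes in cKO 1. It had 75.5, 101 and 106 CPM in the 3 cKO libraries, against 41.6, 32.8 and 42.3 CPM in the WT libraries. The 3 cKO libraries were 1.94-, 2.58- and 2.73-fold over the WT mean, with no overlap between the groups. The fitted log2 difference was 0.96 (SE 0.145) with the batch term and 1.27 without it, and both fits called Foxo6 higher.

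Foxo4 had 32.3, 33.5 and 29.5 CPM in the 3 cKO libraries, against 29.4, 29.9 and 29.9 CPM in the WT libraries. The groups overlapped, with cKO 3 inside the WT range and the other cKO libraries just above it. The fitted log2 difference was 0.12 (SE 0.118) with the batch term and 0.10 without it, and Foxo4 passed in neither fit.

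**Figure D1:**
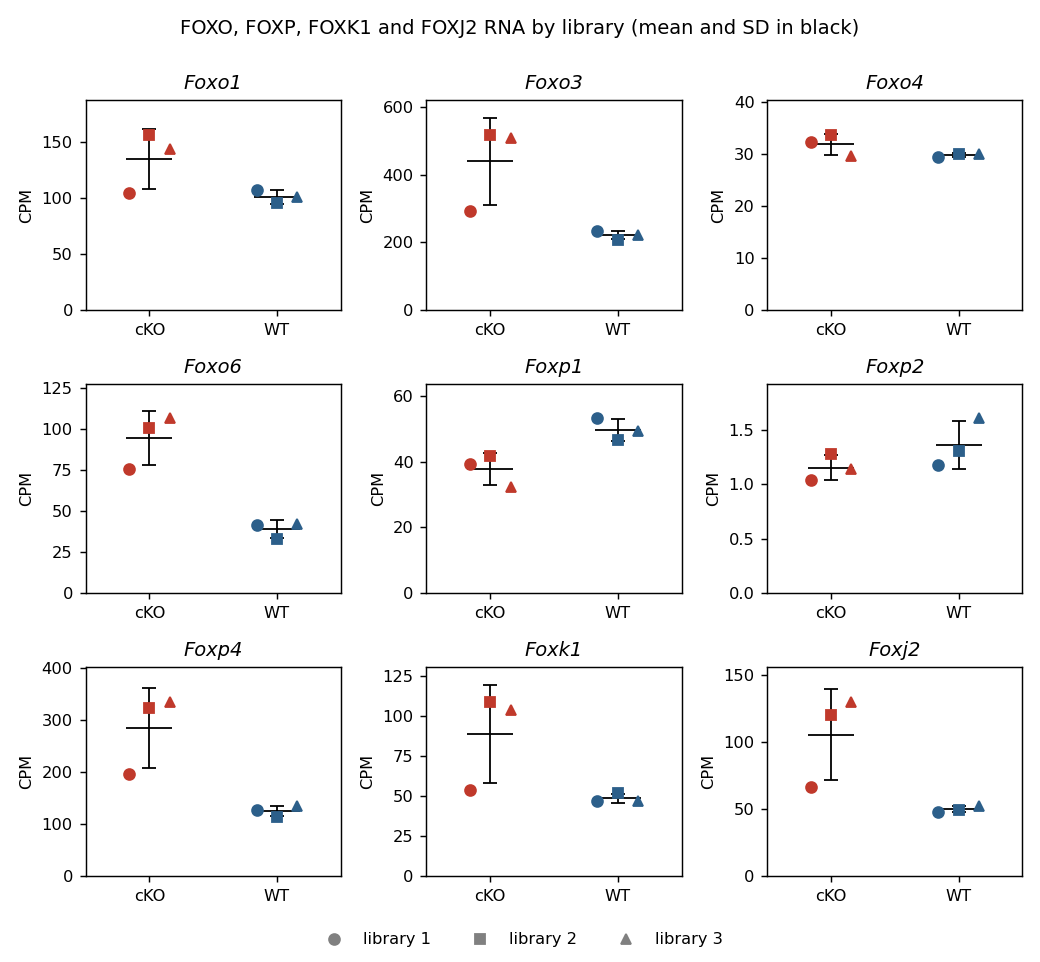
CPM (TMM-scaled library size, linear axis from 0) of the 9 forkhead genes in each library, cKO in red and WT in blue, with the mean and SD of 3 libraries in black. Foxo3, Foxo6, Foxp4, Foxk1 and Foxj2 lie higher in all 3 cKO libraries than in any WT library, Foxp1 lies lower, and Foxo1, Foxo4 and Foxp2 overlap.

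Among the FOXP genes, Foxp4 lay above and Foxp1 below the WT range in every cKO library, and of these Foxp4 was called. Foxp4, which is known from the lung, gut and brain, had 196, 323 and 336 CPM in the 3 cKO libraries, against 127, 115 and 135 CPM in the WT libraries. The cKO libraries stood at 1.56-, 2.57- and 2.67-fold the WT mean and above every WT library. In the batch model the difference was 0.64 (SE 0.107) on the log2 scale, and without the batch term 1.18, with a call as higher in both fits.

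Foxp1, which is known from B cell, heart and brain development, had 39.3, 41.6 and 32.4 CPM in the 3 cKO libraries, against 53.2, 46.6 and 49.2 CPM in the WT libraries. Each cKO library was below each WT library. In the batch model the difference was -0.34 (SE 0.158) on the log2 scale, and without the batch term -0.40, and Foxp1 passed in neither fit. It passed as lower without the batch term when cKO 1 was left out, at a log2 fold change of -0.47. Foxp2, which is known from speech and motor circuits of the brain, was scarce, with 1.04, 1.27 and 1.14 CPM in the cKO libraries, against 1.17, 1.30 and 1.60 CPM in the WT libraries. The groups overlapped, and with 34 to 49 counts per library the log2 difference of -0.38 had an SE of 0.378 and did not pass.

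The level of Foxp4 relative to Foxp1 in the same library was 5.0, 7.77 and 10.4 in the 3 cKO libraries, against 2.39, 2.46 and 2.75 in the WT libraries. This ratio of CPM was above the WT range in each cKO library and mixes the lengths of the 2 genes, so that its change between groups can be read and its absolute size cannot. Per kb of the longest coding transcript, Foxp4 made up 93.0% ± 2.40 of the FOXP level in cKO and 82.6% ± 0.972 in WT (SD, n = 3 each). These shares rest on the length taken for Foxp1. Over the much shorter canonical transcript, an alternative chosen after the values were seen, the share of Foxp4 was 76.2% ± 6.69 in cKO and 52.9% ± 1.81 in WT (SD, n = 3 each), and it was larger in each cKO library than in any WT library on both scales.

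Foxk1, a repressor of autophagy genes that responds to mTOR signaling, had 54.0, 109 and 104 CPM in the 3 cKO libraries, against 46.8, 51.8 and 47.3 CPM in the WT libraries. The cKO 1 library was 1.11-fold the WT mean, just above the highest WT library, and cKO 2 and cKO 3 were 2.24- and 2.13-fold. In the batch model the log2 difference was 0.15 (SE 0.101), where Foxk1 did not pass, and 0.87 without the batch term, where Foxk1 was called higher.

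Foxj2, a transcriptional activator, had 66.9, 120.4 and 130.4 CPM in the 3 cKO libraries, against 48.0, 49.9 and 52.9 CPM in the WT libraries. All 3 cKO libraries lay above the WT range, at 1.33-, 2.39- and 2.59-fold the WT mean. In the batch model the difference was 0.41 (SE 0.0997) on the log2 scale, and without the batch term 1.07, and both fits called Foxj2 higher.

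Counted over the set, 4 of the 9 genes (Foxo3, Foxo6, Foxp4 and Foxj2) were called higher with the batch term, 0 were called lower and 5 were not called. Over all tested genes 6.91% were called higher and 9.24% lower (16.2% in all). None of the 9 was lower and 4 were higher at an unadjusted p under 0.05 in edgeR. Of all 16632 tested genes 2742 were higher and 3119 lower at that threshold. DESeq2 called 4 of the 9 higher and 0 lower as well, against 1651 higher and 2205 lower of all tested genes. Without the batch term 5 were higher, with Foxk1 added, against 17.1% of all genes higher and 16.7% lower (33.8% in all). All 3 cKO libraries lay above all 3 WT libraries in 5 of the 9 genes and below them in 1, against 25.8% and 27.1% of all genes (52.8% in all). The cKO 1 library alone was above the WT range in 6 of the 9, below it in 2 and within it in 1, against 39.9% above and 38.5% below over all genes (78.4% in all). The median log2 fold change of the 9 genes was 0.15 with the batch term and 0.87 without it, and that of all tested genes was 0.01 and 0.04. Since the 9 genes were chosen on this contrast, nothing is read from these counts.

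Leaving out a WT library lowered the calls. Without WT 1 the batch model called Foxo6 and Foxp4, with 328 of all 16632 genes higher and 527 lower. Without WT 3 it also called Foxo6 and Foxp4, with 206 of all genes higher and 218 lower. Without WT 2 it called none of the 9 genes, where it called 12 of all genes. In that fit 4 of the 9 were higher at an unadjusted p under 0.05 in edgeR, and the share of all genes at that threshold was not counted. Without cKO 2 the batch model called the same 4 genes as with all libraries, with 1763 of all genes higher and 2346 lower. Without cKO 3 it called these 4 too, with 1768 higher and 2375 lower. Its genotype difference rests on cKO 1 against the WT libraries with or without cKO 2 or cKO 3. These fits therefore cannot show whether the calls hold in another mutant.

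The cKO libraries were not alike. Between the batch 1 cKO libraries and cKO 1, the level was 1.97-fold in Foxk1, 1.88-fold in Foxj2, 1.76-fold in Foxo3, 1.68-fold in Foxp4, 1.44-fold in Foxo1 and 1.37-fold in Foxo6. It was 1.16-fold in Foxp2, 0.976-fold in Foxo4 and 0.943-fold in Foxp1. The batch term of edgeR, which compares cKO 2 and cKO 3 with cKO 1, was called higher in 5 of the 9 genes (Foxo1, Foxo3, Foxp4, Foxk1 and Foxj2) against 15.8% of all genes (32% called either way). Whether batch or the degree of the mutant phenotype differs between these libraries cannot be told apart.

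The cKO 1 library also had the highest level of Tardbp and of spermatocyte markers among the cKO libraries, and the lowest of Sertoli markers. Per library, the median fold of 16 Sertoli markers over the WT mean was 1.38, 1.78 and 1.92 in cKO 1 to cKO 3, and the summed fold was 1.38, 2.16 and 2.32. The folds of Foxo6 and Foxp4, given above, were larger than that summed fold in each cKO library, and those of Foxo1, Foxo4, Foxp1 and Foxp2 were smaller in each. Foxo3 and Foxk1 were below it in cKO 1 and cKO 3 and above it in cKO 2, and Foxj2 was below it in cKO 1 and above it in the others. The Sertoli gene Clu alone held 3473 of the 7385 CPM summed on average in WT. Against the median fold, Foxo3 and Foxk1 were below in cKO 1 and above in cKO 2 and cKO 3. What part the share of Sertoli cell RNA has in these values was not tested.

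**Figure D2:**
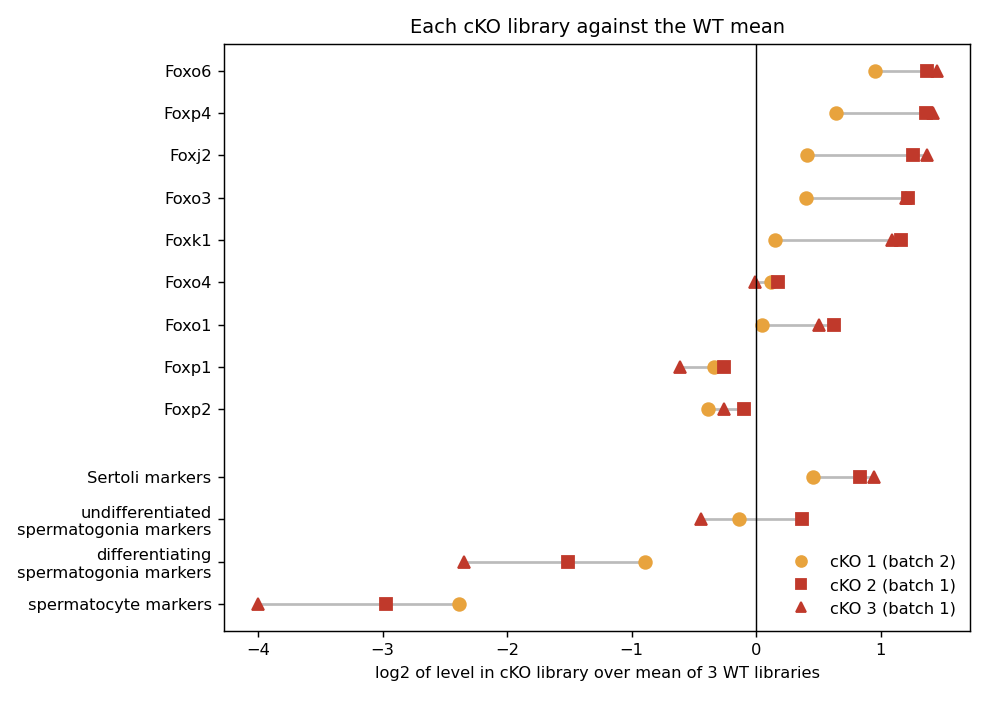
Log2 of the level in each cKO library over the mean of the 3 WT libraries, for the 9 forkhead genes (upper rows, ordered by cKO 1) and for the median of 4 marker lists (lower rows), with cKO 1 in orange and the batch 1 libraries in red. Foxo6 is highest in cKO 1 at 1.94-fold, and the forkhead genes that were higher stand further right in cKO 2 and cKO 3, as Sertoli markers do, while the spermatocyte markers stand far left.

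Foxo1 was set against its paralogs within each library, where the scaling of libraries cancels. The log2 ratio of Foxo1 to Foxo3 was -1.49, -1.73 and -1.83 in cKO 1, cKO 2 and cKO 3, against -1.13, -1.13 and -1.15 in the WT libraries. It was lower in each cKO library than in any WT library, by 0.55 on average and by 0.35 in cKO 1. The log2 ratio to Foxo6 was 0.46, 0.63 and 0.43 in the cKO libraries, against 1.36, 1.54 and 1.25 in the WT libraries. It too was lower in every cKO library, by 0.87 on average and by 0.92 in cKO 1, and so it moved as far in the batch shared with WT as in the other.

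The log2 ratio of Foxo1 to Foxo4 was 1.69, 2.21 and 2.28 in the cKO libraries, against 1.86, 1.66 and 1.75 in the WT libraries. It was within the WT range in cKO 1 and above it in cKO 2 and cKO 3, so that the groups overlapped. As a description, then, the level of Foxo1 relative to Foxo3 and Foxo6 was lower in all cKO libraries, and relative to Foxo4 it was higher in those of batch 1. The pairs were chosen with the contrast known and were not tested.

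Per kb of the longest coding transcript, Foxo1 made up 16.7%, 16.1% and 15.2% of the FOXO level in cKO 1 to cKO 3, against 21.2%, 21.0% and 20.5% in WT 1 to WT 3. Foxo3 was the main FOXO RNA in both groups, at 56.9% ± 4.53 in cKO and 50.7% ± 0.384 in WT (SD, n = 3 each). In cKO 1 its share, 51.7%, was near that of WT. The share of Foxo6 was 16.5% ± 1.22 in cKO and 11.8% ± 1.07 in WT, and that of Foxo4 was 10.6% ± 2.93 in cKO and 16.6% ± 1.08 in WT. Foxo6 thus held more of the FOXO RNA than Foxo1 in cKO 1 and cKO 3 and less in cKO 2, and less than Foxo1 in each WT library.

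**Figure D3:**
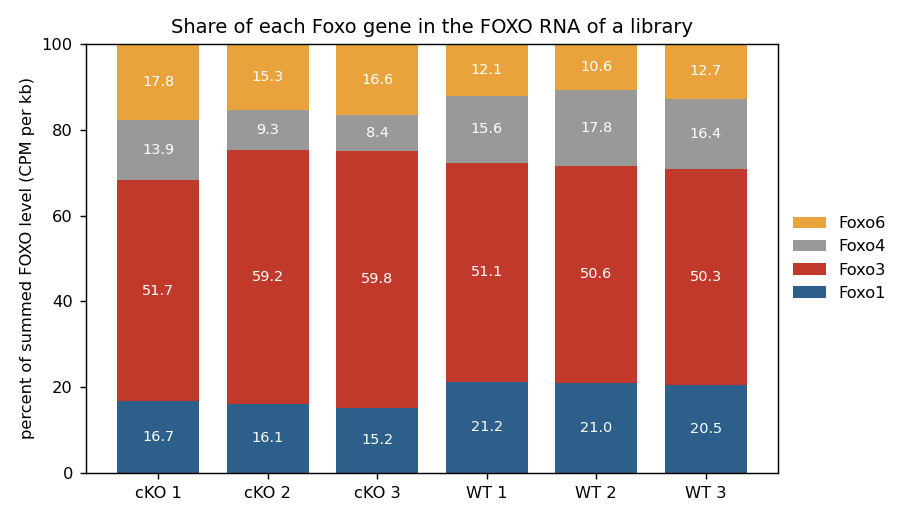
Share of each Foxo gene in the summed FOXO level of a library (CPM per kb of the longest coding transcript, in percent), cKO libraries on the left and WT libraries on the right. The share of Foxo1 is 15.2% to 16.7% in cKO and 20.5% to 21.2% in WT, while that of Foxo6 is larger in each cKO library than in any WT library.

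On the same per-kb scale the 9 genes could be ordered by level. In cKO the order of the means was Foxp4 (67.6 CPM per kb), Foxo3 (56.1), Foxj2 (19.9), Foxo6 (16.0), Foxo1 (15.5), Foxk1 (11.9), Foxo4 (9.87), Foxp1 (4.62) and Foxp2 (0.169). In WT the order was Foxp4 (29.8 CPM per kb), Foxo3 (28.3), Foxo1 (11.6), Foxj2 (9.44), Foxo4 (9.23), Foxo6 (6.60), Foxk1 (6.53), Foxp1 (6.08) and Foxp2 (0.199). In cKO the ranges of Foxp4 and Foxo3 and of each neighbouring pair between Foxj2 and Foxo4 overlapped. Among WT libraries the ranges of Foxp4 and Foxo3, of Foxj2 and Foxo4, of Foxo6 and Foxk1 and of Foxk1 and Foxp1 overlapped. Compared within each library, Foxp4 was above Foxo3 in every library and Foxo1 above Foxk1 in every cKO library. In the other pairs that overlapped, the order changed between libraries of the group. The place of Foxp1 rests on transcript length. Over its canonical transcript, an alternative chosen after the values were seen, Foxp1 came to 26.9 CPM per kb in WT and stood next after Foxo3 and Foxp4, which changed places.

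Foxo1 is known from undifferentiated spermatogonia, so the markers of that state were set beside it. The summed level of 17 such markers was 779, 698 and 467 CPM in the 3 cKO libraries, against 1443, 1593 and 1514 CPM in WT. Of the 17, 2 were higher (Etv5 and Lhx1) and 3 lower (Dazl, Ddx4 and Taf4b), against 6.91% higher and 9.24% lower over all genes. Without Dazl and Ddx4, which germ cells past that state also express, the other 15 summed to 352, 475 and 343 CPM in cKO, against 450.2, 471 and 471 CPM in WT, so that most of the lower sum lay in those genes. Apart from Ddx4 these genes, and the sum without them, were picked after the values were seen. The germ cell RNA helicase gene Ddx4 fell to 118, 63.4 and 35.5 CPM in the cKO libraries, against 282, 319 and 283 CPM in WT (adjusted p = 0.0292 from edgeR). Gfra1, which encodes the GDNF co-receptor of stem spermatogonia, had 20.4, 42.7 and 31.7 CPM in cKO, against 16.1, 14.5 and 16.1 CPM in WT. Its log2 fold change of 0.39 did not pass with the batch term (adjusted p = 0.169 from edgeR), and it was called higher without it. All 3 cKO libraries lay above all 3 WT libraries in 4 of the 17 markers, Gfra1 among them, and below them in 6. The shares over all genes were 25.8% and 27.1%. Lin28a and Sall4, named after their values were seen, were among the 6. The median fold of the 17 markers over the WT mean was 0.908, 1.29 and 0.736 in cKO 1 to cKO 3, and that of Foxo1 was 1.03, 1.54 and 1.42.

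The genes whose profile over the 6 libraries was nearest to that of Foxo1, by root mean square distance of log2 CPM from the WT mean, were Mkrn1, which encodes a ubiquitin ligase (distance 0.0239), Mettl27 (0.0269), Socs7, a member of the suppressor of cytokine signaling family (0.0275), and Mfsd5 (0.0309). Mkrn1 had 207, 303 and 277 CPM in the cKO libraries and 199.8 CPM on average in WT. The genes nearest to Foxo6 were Dhh, which encodes the hedgehog ligand of Sertoli cells (0.0741), Pnmal2 (0.0742), the potassium channel gene Kcng2 (0.0859) and the proapoptotic gene Hrk (0.0883). Dhh, one of the 16 Sertoli markers, had 298, 379 and 438 CPM in cKO and 163 CPM on average in WT. Without cKO 1 none of the 4 nearest genes of either list was among the nearest, and without cKO 2 or cKO 3 only 2 of 4 for Foxo1, and 1 and 2 of 4 for Foxo6, remained among them. Both lists thus change with each cKO library left out.

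Between the 9 genes themselves, the closest profiles were Foxo3 and Foxj2 (distance 0.102), Foxp4 and Foxj2 (0.122), Foxo6 and Foxp4 (0.144) and Foxo3 and Foxk1 (0.148). The farthest were Foxo6 and Foxp1 (1.20). The distances share libraries and batch and are given as a description.

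The other 36 forkhead genes in the table served as the rest of the family. Of these, 17 passed the filter on low counts. With the batch term 0 were higher, 1 was lower and 16 did not pass, against 6.91% higher and 9.24% lower over all genes. Their median log2 fold change was -0.29. These 17 are what remained once the 9 genes were chosen with the contrast known, so that nothing is read from their counts. At an unadjusted p under 0.05 from edgeR 2 of the 17 were higher and 4 lower, against 2742 and 3119 of all 16632 tested genes. DESeq2 called 2 of the 17 higher and 2 lower, against 1651 and 2205 of all tested genes. The gene that passed was Foxn2, at 39.2, 31.2 and 29.9 CPM in the cKO libraries and 56.4 ± 3.57 CPM in WT (SD, n = 3), a difference of -0.52 on the log2 scale (SE 0.114, edgeR adjusted p = 0.029). Foxq1 had a log2 fold change of 0.56 (adjusted p = 0.0554 from edgeR), Foxn3 0.30 (adjusted p = 0.0669 from edgeR) and Foxn4 -1.49 (adjusted p = 0.0836 from edgeR). Foxm1, a driver of the G2 to M transition, had 53.9, 65.8 and 41.5 CPM in cKO, against 81.3, 85.5 and 77.2 CPM in WT (adjusted p = 0.116 from edgeR). Foxj3, the nearest relative of Foxj2 by name, had a log2 fold change of -0.26 (adjusted p = 0.0989 from edgeR).

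Without the batch term 5 of the 17 were higher (Foxq1, Foxn3, Foxk2, Foxc2 and Foxs1) and 6 lower (Foxn2, Foxn4, Foxm1, Foxa3, Foxr1 and Foxf1), against 17.1% and 16.7% of all genes. In all cKO libraries 7 of the 17 lay above and 8 below WT, against 25.8% and 27.1% of all genes. Foxk2, the paralog of Foxk1, had 102, 128 and 135 CPM in the cKO libraries, against 89.9, 78.1 and 89.4 CPM in WT. These names, beyond the 6 smallest p, were given after the values were seen.

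Upstream of FOXO factors lie the genes of the PI3K-AKT axis. Of 35 tested regulators 4 were higher, 7 were lower and 24 did not pass, against 6.91% higher and 9.24% lower over all genes, with a median log2 fold change of 0.06. Kit, the stem cell factor receptor that signals through PI3K in differentiating spermatogonia, was lower at -0.94 (SE 0.116, edgeR adjusted p = 0.014), with 75.4, 85.1 and 72.9 CPM in cKO, against 142, 148 and 143 CPM in WT. Pdpk1, the kinase that activates AKT, was at 62.6, 60.4 and 57.4 CPM in cKO, against 101, 125 and 106 CPM in WT (log2 fold change -0.83). The PI3K catalytic subunit gene Pik3cb was at 27.1, 24.5 and 20.4 CPM in cKO, against 45.3, 46.5 and 41.9 CPM in WT (log2 fold change -0.72). Both lay below WT in every cKO library, and their adjusted p from edgeR were 0.0179 and 0.0234.

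Insr, the insulin receptor gene, went the other way, with 55.4, 78.5 and 83.5 CPM in cKO, against 36.8, 39.0 and 34.5 CPM in WT (log2 fold change 0.59, adjusted p = 0.0197 from edgeR). Its substrates Irs1 and Irs2 and the 14-3-3 gene Ywhah, named after their values were seen, were the other 3 that were higher. Irs2 had 47.3, 114 and 142 CPM in cKO, against 34.5, 30.2 and 30.9 CPM in WT. Stk4, which encodes a kinase known to phosphorylate FOXO proteins, was lower at -0.37 (adjusted p = 0.0375 from edgeR). Mtor and Usp7, also named after their values were seen, were lower too, and Mtor did not pass without the batch term.

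Of 28 tested FOXO target genes 1 was higher, 4 were lower and 23 did not pass, against 6.91% higher and 9.24% lower over all genes, with a median log2 fold change of 0.09. Cited2, a CBP-binding regulator, was higher, with 234, 287 and 348 CPM in cKO, against 145, 120.4 and 144 CPM in WT (log2 fold change 0.78, adjusted p = 0.0205 from edgeR). Atg12, an autophagy gene, was lower in each cKO library, with 73.6, 65.0 and 68.5 CPM in cKO, against 97.2, 95.6 and 99.3 CPM in WT (adjusted p = 0.0315 from edgeR). Trp53inp1, a stress response gene, was at 89.7, 45.8 and 48.4 CPM in cKO, against 115, 129.5 and 123 CPM in WT (adjusted p = 0.0338 from edgeR). Sesn3, which encodes a regulator of mTOR signaling, had 21.5, 32.3 and 32.1 CPM in cKO, against 31.8, 32.2 and 32.8 CPM in WT, and the muscle ubiquitin ligase gene Trim63 0.399, 1.88 and 1.91 CPM in cKO, against 2.41, 1.83 and 1.51 CPM in WT. Their calls (adjusted p = 0.0214 and 0.025 from edgeR), like every call with the batch term, rest on cKO 1 against the WT libraries. For both genes cKO 2 and cKO 3 lay within the WT range, and neither gene passed without the batch term.

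Cdkn1b, which encodes the cell cycle inhibitor p27, had 52.4, 49.5 and 49.2 CPM in cKO, against 38.8, 41.0 and 43.5 CPM in WT, and did not pass (adjusted p = 0.0607 from edgeR). Ret, the GDNF receptor gene and a target of FOXO1 in spermatogonia, is named after its values were seen, with 35.2, 79.9 and 56.1 CPM in cKO, against 26.6, 24.4 and 31.0 CPM in WT. It did not pass with the batch term (adjusted p = 0.247 from edgeR) and was called higher without it.

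Of the 19 genes of FOXP and FOXK partner complexes 1 was higher, 1 was lower and 17 did not pass, against 6.91% higher and 9.24% lower over all genes, with a median log2 fold change of -0.03. Ogt, which encodes the O-GlcNAc transferase that binds SIN3A and the BAP1 complex, had 475, 337 and 394 CPM in cKO, against 271, 297 and 253 CPM in WT (log2 fold change 0.80, adjusted p = 0.0152 from edgeR). Hdac1, a histone deacetylase of NuRD and SIN3, had 101, 72.5 and 65.3 CPM in cKO, against 131, 134 and 137 CPM in WT (log2 fold change -0.41, adjusted p = 0.0362 from edgeR). Asxl2, Sin3a, Sin3b and Ctbp2 had log2 fold changes of 0.43, -0.28, -0.28 and 0.51 and did not pass (adjusted p of 0.0702, 0.0733, 0.0813 and 0.0868 from edgeR), and Sin3b changed sign without the batch term.

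**Figure D4:**
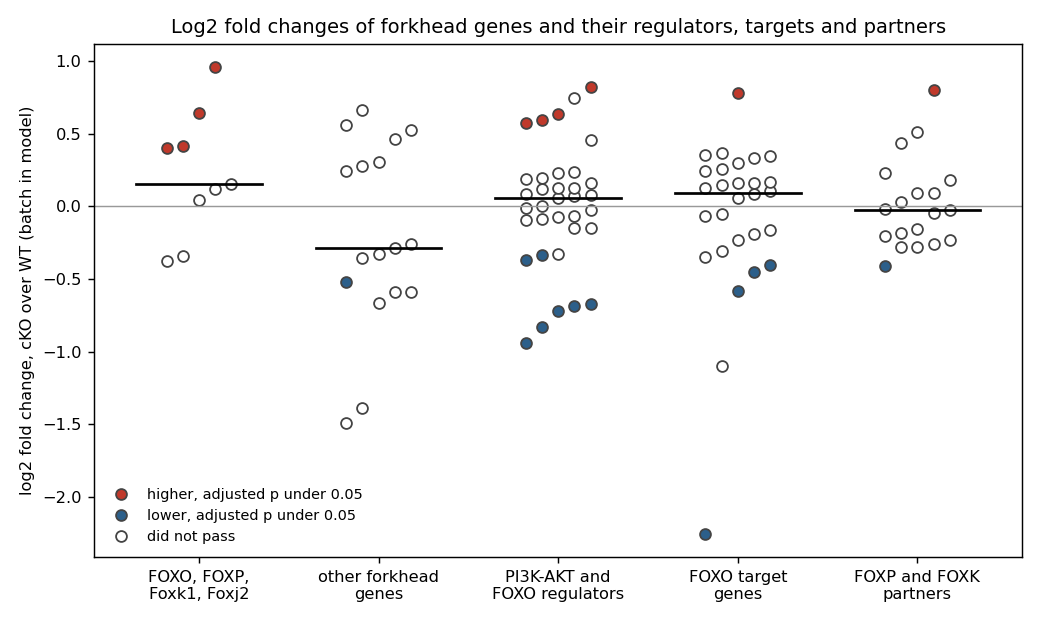
Log2 fold changes of cKO over WT (batch in the model, linear axis) for the 9 forkhead genes, the 17 other forkhead genes tested, 35 PI3K-AKT and FOXO regulators, 28 FOXO target genes and 19 FOXP and FOXK partner genes, with filled points for genes that passed and a black line at the median of each list. The medians run from -0.29 to 0.15. In the order of the lists, 0, 1, 7, 4 and 1 genes were called lower, against 9.24% of all genes. The first list was chosen with this contrast known, so that nothing is read from its 0.

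Outside the germ cells and Sertoli cells, macrophage markers summed to 154, 225 and 265 CPM in cKO, against 141, 122 and 116 CPM in WT, and 0 of 7 passed in edgeR (1 higher and 0 lower at an unadjusted p under 0.05) or in DESeq2. Interstitial mesenchymal markers summed to 5036, 5014 and 7912 CPM in cKO, against 1711, 3189 and 3467 CPM in WT, and 2 of 7 were higher. The collagen genes Col1a1 and Col1a2 held most of these sums, and without them the other 5, a sum added after the values were seen, came to 1241, 791 and 1118 CPM in cKO, against 665, 811 and 826 CPM in WT. Over all 7 the median fold over the WT mean was 1.65, 1.06 and 1.40 in cKO 1 to cKO 3. Differentiating spermatogonia markers summed to 347, 303 and 183 CPM in cKO, against 706, 779 and 767 CPM in WT, and 4 of 8 were lower, Kit among them. Beside these marker calls, 6.91% of all genes were called higher and 9.24% lower with the batch term in edgeR. At an unadjusted p under 0.05, 2742 of all 16632 genes were higher and 3119 lower. The marker sums stand beside the forkhead values as measured, and what part each cell type has in them was not tested.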

How the data were processed

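RNA was measured in 6 whole testes, with the groups and batches taken from the labels. The authors mapped reads with Salmon 1.2.0 to NCBI transcripts with GRCm39 as decoy, corrected for sequence and GC bias, and summed them with tximport to the deposited estimated counts (expected counts, shared between similar genes). The deposited log2 values are CPM with TMM normalization by the authors, and recomputing them from the counts agreed to within 5.15e-14. After rounding, genes reaching 0.5 CPM in 3 or more libraries (16632) were tested with edgeR 4.0.16 in R 4.3.3 (TMM, batch and genotype, threshold 0.05). limma 3.58.1 and DESeq2 1.42.0 gave alternatives. The test was checked on simulated counts. Depth was 30028685 to 43371284 counts, so that spread between mice limits precision except for scarce genes. Levels per kb use the longest coding transcript of GENCODE vM39, because no RefSeq length was given. Promoters were matched for 5 of the 9 genes (7 windows). The genes and lists were chosen with earlier results of these data known. Named were the 9 genes, the 6 smallest p of each list, the 4 nearest profiles, and up to 2 markers per cell type. An item that falls under this rule counts towards its list but is not reported here. Figures were drawn with matplotlib 3.10.9.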

Additional observations from a re-analysis of the deposited data

How the results depend on the processing

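Of the 9 forkhead genes, the same 4 were called higher with DESeq2, limma-trend, DESeq2-style size factors and library size only. So they were with no filter and with a mean of at least 1 CPM, while 5 were called without the batch term. With the batch 2 libraries only, the log2 fold changes were 0.41 for Foxo3, 0.97 for Foxo6, 0.65 for Foxp4 and 0.42 for Foxj2. Apart from the fit without the batch term, all of these rest on cKO 1 against the same 3 WT libraries. Their agreement therefore adds no other mutant library. The other lists moved more. Without the batch term, 5 other forkhead genes were higher and 6 lower, against 0 and 1 with it. For the same fit the numbers were 8 higher for regulators, 5 higher for targets, and 4 higher and 2 lower for partner genes, and Sin3b had a log2 fold change of 0.067. With batch 2 libraries only, 2 other forkhead genes were higher and 3 lower, and 2 targets and 2 partner genes were higher. DESeq2 called 2 other forkhead genes higher and 2 lower, 2 targets higher, and 3 partner genes higher and 3 lower. With no filter, 1 other forkhead gene was higher and 3 lower, and 3 partner genes were higher. Over all genes, 2687 passed with the batch term, 5624 without it and 4178 with batch 2 libraries only. The causes of these differences were not tested.

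Deviations of same-numbered cKO and WT libraries correlated at -0.0973, -0.0628 and 0.00775, and those of differently numbered libraries at -0.132 to 0.180. Since cKO 1 also differs from cKO 2 and cKO 3 in batch, these values cannot settle whether replicate numbers pair the mice. With the replicate block and the batch term, 2 of the 9 genes (Foxo6 and Foxp4) were higher, Foxo1 had a log2 fold change of -0.0398, 2 regulators were higher and 4 lower, 1 target was lower, and 0 other forkhead genes and 0 partner genes were lower, with 1217 calls over all genes. With the block but no batch term, 5 of the 9 were higher, 4 other forkhead genes were higher and 4 lower, 4 targets were higher, 2 partner genes were lower and Sin3b was at 0.0507.

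Leaving out each library in turn, with and without the batch term, gave 0 to 6 of the 9 genes higher and 0 to 1 lower, 0 to 6 other forkhead genes higher and 0 to 7 lower, 0 to 15 regulators higher and 0 to 16 lower, 0 to 13 targets higher and 0 to 7 lower, and 0 to 8 partner genes higher and 0 to 4 lower. Each highest number came without cKO 1 and without the batch term, and the lowest numbers included the fits without WT 2. Sin3b ran from -0.32 to 0.19. The differences in log2 ratio of Foxo1 to its paralogs kept their sign with each library left out. Each of these sets kept a batch 1 library, and for cKO 1 alone the difference to Foxo4 was -0.07. Depth limits only Foxp2 among the 9 genes.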
